A study of Mus musculus with 8 samples.

Results

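The 32 genes described here carry MHC class I and class II antigen presentation, and they were taken by name from a table of read counts for 55450 mouse genes. They comprise 22 class I genes, namely the chains, the peptide loading complex, the immunoproteasome and the transactivator Nlrc5, and 10 class II genes, namely the chains, the loading factors and the transactivator Ciita. All 32 had enough reads to be tested. Total RNA was sequenced from 8 libraries of sorted neutrophils, in 4 groups of 2. Tumour CD71+ and tumour CD71- neutrophils were sorted out of mouse brain tumours, for which the labels give SB28, a mouse glioma cell line, as the source. Culture CD71+ and culture CD71- neutrophils were sorted from cells grown in vitro from naive bone marrow. CD71 is the transferrin receptor, a surface protein of cells that take up iron. Strain, age, culture conditions, the other markers of the sort and whether animals were pooled are not given in the sources used here. No label ties a sample to an animal or culture of its own, and the p-values therefore reflect sample-to-sample spread alone, part of which may be technical.

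MHC class I molecules are built from a heavy chain and beta-2-microglobulin, and they show peptides of the cell's own proteins to CD8 T cells. The immunoproteasome cuts those peptides, the TAP transporter brings them into the endoplasmic reticulum, and tapasin, calreticulin and ERp57 help to load them. MHC class II molecules show peptides from engulfed material to CD4 T cells and are typical of dendritic cells, macrophages and B cells, whereas resting neutrophils are known to carry little of them. Class II chains travel with the invariant chain Cd74, H2-DM exchanges its remnant for peptides, H2-O restrains H2-DM, and Ciita switches the whole set on.

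The libraries held 9598959 to 22615813 counts. Levels are given in CPM, counts scaled to one common library size with TMM factors, on which the floor of 3 counts is 0.0915 to 0.419 CPM. That floor covers counting error only. Tfrc, which encodes CD71, had 103 and 108 CPM in tumour CD71+ libraries against 187 and 145 CPM in tumour CD71- libraries, and 116 and 115 CPM in culture CD71+ libraries against 131 and 94.3 CPM in culture CD71- libraries. With TMM scaling the transcript of the sort marker was thus lower in the tumour CD71+ libraries (log2 -0.65, SE 0.19, adjusted p = 0.014) and did not differ by the test in culture (0.03, SE 0.19, adjusted p = 0.93), so the fractions are called by their labels. Csf3r, the neutrophil G-CSF receptor, had 2299 and 1996 CPM in tumour CD71+ libraries, 5780 and 5332 CPM in tumour CD71- libraries, 311 and 351 CPM in culture CD71+ libraries and 1874 and 1447 CPM in culture CD71- libraries. All 20 genes of a mature neutrophil list had reads in every library. In bulk samples such as these, fewer cells of a type and less RNA per cell cannot be told apart.

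In the tumour, class II genes were higher in the CD71+ fraction. Of the 10 class II genes, 9 were called higher in tumour CD71+ than in tumour CD71- neutrophils, where a call means an adjusted p under 0.05 in the quasi-likelihood test of edgeR, adjusted by Benjamini-Hochberg over all 15975 genes tested. Of all those genes 44.1% were called, 26.1% as higher. The log2 fold changes of the 10 ran from 1.10 to 4.61 with a median of 2.08, beside a median of 0.13 over all genes tested. For all 10, the tumour CD71+ libraries lay above the tumour CD71- libraries with no overlap. Of the 22 class I genes 20 did not overlap between these fractions either, in 1 direction or the other. The lack of overlap was thus not particular to class II. The share over all genes tested was not counted, so it is not read as a result about these genes. The class II genes together summed to 886 and 779 CPM in tumour CD71+ libraries, against 239 and 217 CPM in tumour CD71- libraries.

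Among the chains, H2-Ab1, the beta chain of the A molecule, had 112 and 89.3 CPM in tumour CD71+ libraries against 30.3 and 27.2 CPM in tumour CD71- libraries. The rise was log2 1.81 (SE 0.22, adjusted p = 4.8e-05), and every CD71+ library was above every CD71- library. H2-Aa, the alpha chain of the same molecule, had 120 and 101 CPM in tumour CD71+ libraries against 38.7 and 35.3 CPM in tumour CD71- libraries (log2 1.57, SE 0.40, adjusted p = 0.011). H2-Eb1, the beta chain of the E molecule, had 88.0 and 97.0 CPM in tumour CD71+ libraries against 50.8 and 35.3 CPM in tumour CD71- libraries (log2 1.10, SE 0.21, adjusted p = 0.0011), the smallest rise of the 9. The call for H2-Aa was lost without tumour CD71- replicate 1 (adjusted p = 0.0826), without tumour CD71- replicate 2 (0.101) and with DESeq2's test (0.0807).

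The loading factors were higher too. Cd74, the invariant chain that occupies the groove of new class II molecules, had 391 and 305 CPM in tumour CD71+ libraries against 100 and 93.5 CPM in tumour CD71- libraries (log2 1.85, SE 0.21, adjusted p = 2.7e-05). H2-DMa, the alpha chain of the peptide editor H2-DM, had 23.8 and 26.6 CPM in tumour CD71+ libraries against 5.72 and 4.43 CPM in tumour CD71- libraries (log2 2.31, SE 0.28, adjusted p = 3.9e-05). H2-DM has a pair of beta chain genes that lie side by side on chromosome 17. H2-DMb1 had 21.4 and 14.6 CPM in tumour CD71+ libraries against 2.09 and 1.94 CPM in tumour CD71- libraries (log2 3.15, SE 0.37, adjusted p = 3.7e-05). H2-DMb2 had 5.96 and 4.61 CPM in tumour CD71+ libraries against 0.279 and 0.139 CPM in tumour CD71- libraries. Those levels stand for 111 and 3 reads over each pair of libraries, a ratio of scaled counts of 25.3 with an exact 95% interval of 8.44 to 125 that covers counting error only, and edgeR gave a log2 value of 4.61 (SE 0.64, adjusted p = 9.1e-05). Ifi30, a lysosomal thiol reductase (GILT) that opens disulfide bonds of engulfed proteins, had 115 and 135 CPM in tumour CD71+ libraries against 9.91 and 18.2 CPM in tumour CD71- libraries (log2 3.15, SE 0.28, adjusted p = 4.2e-06). H2-Oa, a chain of the H2-DM inhibitor H2-O, had 1.15 and 1.60 CPM in tumour CD71+ libraries against 0.698 and 0.416 CPM in tumour CD71- libraries, and its difference of 1.30 did not pass (SE 0.76, adjusted p = 0.18).

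Ciita, the transactivator of class II genes, was scarce in every library. It had 7.6 and 4.24 CPM in tumour CD71+ libraries against 0.419 and 0.693 CPM in tumour CD71- libraries, a rise of log2 3.39 (SE 0.77, adjusted p = 0.0035). The call was lost without tumour CD71- replicate 1 (adjusted p = 0.0672).

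In culture, all 10 class II genes were called higher in CD71+ than in CD71- neutrophils, where 19.2% of all genes tested were called, 9.76% as higher. Their log2 fold changes ran from 0.90 to 3.55 with a median of 1.98, beside a median of 0.03 over all genes. None of the 10 overlapped between the groups, and 11 of the 22 class I genes did not overlap either. The share over all genes was not counted, so the lack of overlap is not read as a result about these genes. The tumour and culture comparisons share no library. The class II genes called higher in both were all 9 of the tumour calls and 9 of the 10 culture calls, with H2-Oa called in culture alone.

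H2-Eb1 had 25.2 and 22.8 CPM in culture CD71+ libraries against 2.13 and 3.17 CPM in culture CD71- libraries, a rise of 3.21 (SE 0.26, adjusted p = 5.8e-06). H2-Aa had 39.4 and 33.5 CPM in culture CD71+ libraries against 2.13 and 8.61 CPM in culture CD71- libraries (log2 2.85, SE 0.45, adjusted p = 0.0027). H2-Ab1 had 68.6 and 56.2 CPM in culture CD71+ libraries against 19.0 and 28.0 CPM in culture CD71- libraries (log2 1.42, SE 0.22, adjusted p = 0.00056). The culture CD71- libraries stood far from each other in H2-Aa, and both were below the culture CD71+ libraries. Cd74 had 759 and 614 CPM in culture CD71+ libraries against 236 and 338 CPM in culture CD71- libraries (log2 1.26, SE 0.20, adjusted p = 0.00086). Ciita had 9.64 and 14.0 CPM in culture CD71+ libraries against 0.296 and 1.99 CPM in culture CD71- libraries (log2 3.55, SE 0.52, adjusted p = 0.00055). These were the highest Cd74 and Ciita levels of the 4 groups, in the culture CD71+ libraries, and no library of another group reached them.

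The H2-DM genes followed the same order in culture. H2-DMa had 67.0 and 57.5 CPM in culture CD71+ libraries against 11.8 and 17.9 CPM in culture CD71- libraries (log2 2.08, SE 0.23, adjusted p = 5.2e-05). H2-DMb1 had 17.9 and 20.6 CPM in culture CD71+ libraries against 4.03 and 6.44 CPM in culture CD71- libraries (log2 1.91, SE 0.28, adjusted p = 0.00048). H2-DMb2 had 32.7 and 38.7 CPM in culture CD71+ libraries against 6.63 and 10.8 CPM in culture CD71- libraries (log2 2.06, SE 0.25, adjusted p = 8.9e-05). All 3 were apart between the fractions. The inhibitor chain H2-Oa had 11.2 and 8.92 CPM in culture CD71+ libraries against 2.84 and 5.35 CPM in culture CD71- libraries (log2 1.35, SE 0.32, adjusted p = 0.0097). Ifi30 had 43.3 and 29.2 CPM in culture CD71+ libraries against 17.7 and 21.4 CPM in culture CD71- libraries (log2 0.90, SE 0.26, adjusted p = 0.026). The H2-Oa call was lost without culture CD71+ replicate 1 (adjusted p = 0.104), without culture CD71- replicate 1 (0.0624) and with DESeq2's test (0.0763), and the Ifi30 call was lost without culture CD71+ replicate 1 (0.27) or culture CD71- replicate 1 (0.111).

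**Figure D1:**
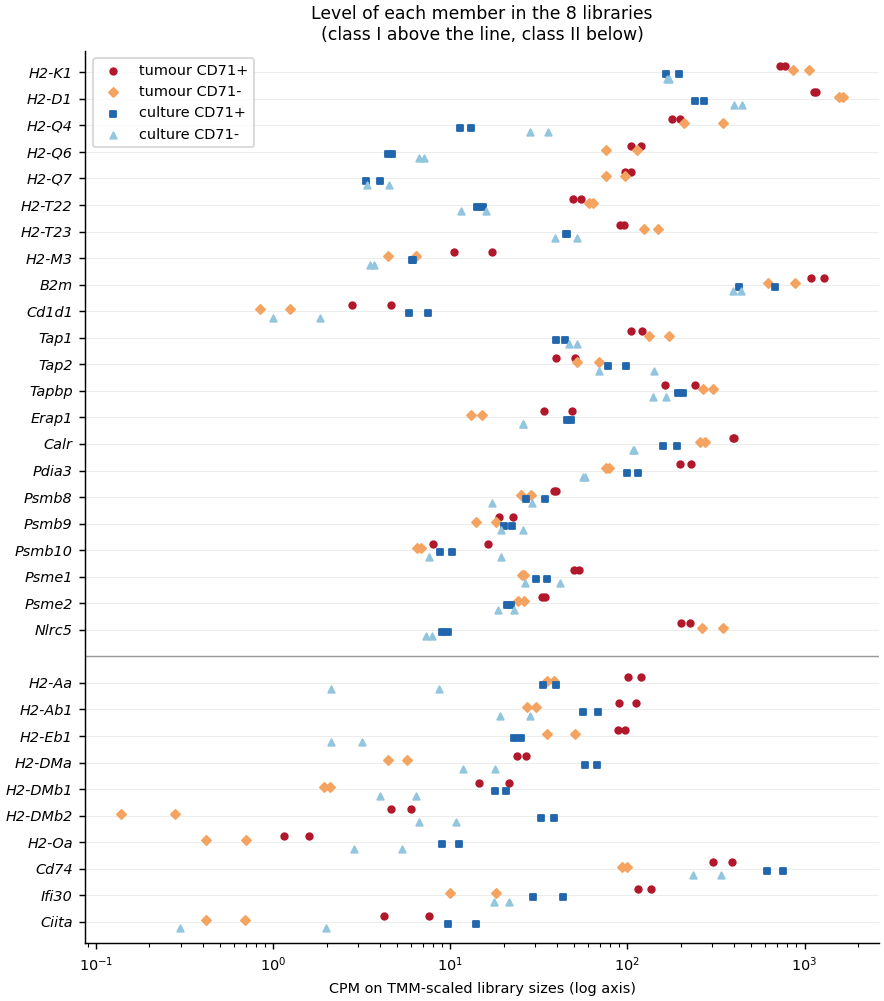
Level of each of the 32 genes in the 8 libraries, in CPM on a log axis, with class I above the line and class II below it. Each point is a library. The tumour CD71+ and culture CD71+ points of the class II genes lie to the right of the CD71- points of the same origin, and the H2-K1, H2-D1, H2-Q and Nlrc5 points of both tumour fractions lie to the right of those of both culture fractions.

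**Figure D2:**
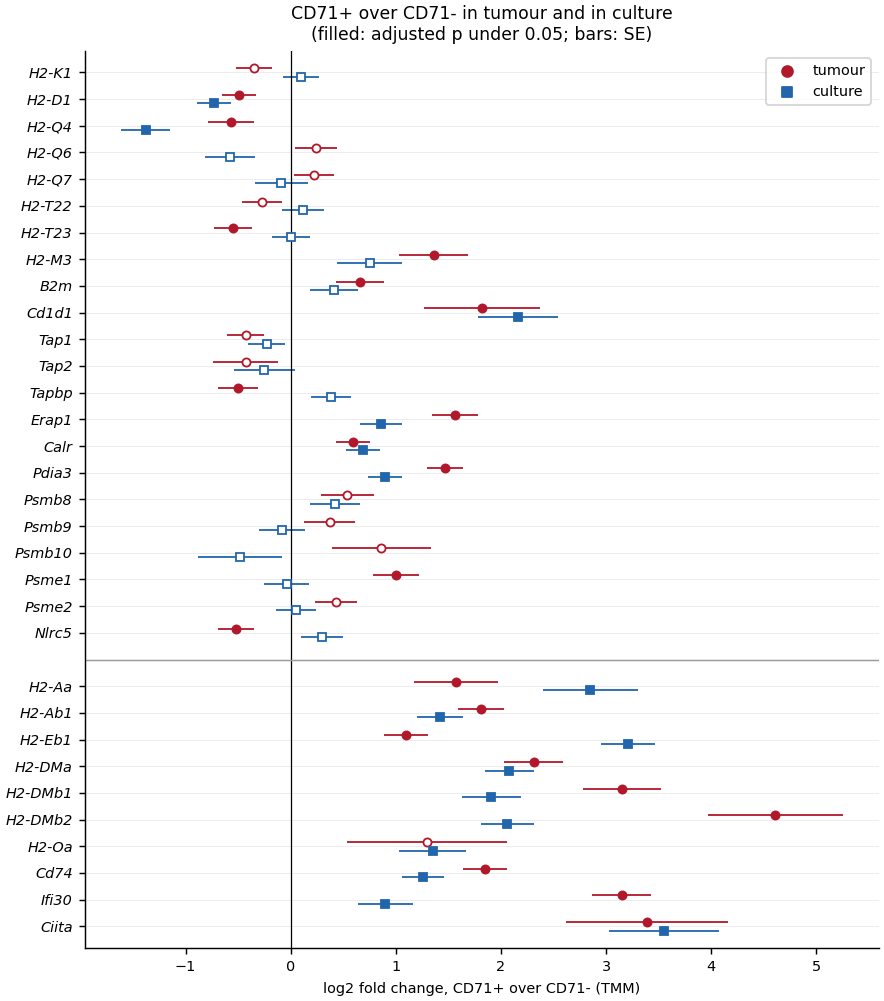
Log2 fold change of CD71+ over CD71- for each gene in the tumour (circles) and in culture (squares), with bars of 1 SE, and filled symbols for an adjusted p under 0.05. The class II genes lie between 0.90 and 4.61, whereas the class I genes spread to both sides of 0.

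Class II promoters are known for an arrangement of short motifs. The 4 shown are from among the genes called higher in the CD71+ fraction of both origins. The X box is bound by the RFX complex, the neighbouring X2 box by CREB and the Y box by NF-Y, and Ciita docks on these proteins. The sequences are from RefSeq on GRCm38.p6, written 5′ to 3′ in the direction of transcription, with matches to the X box core ACNGATGA, the X2 palindrome TGACGTCA or the Y box core ATTGG, each on either strand, in capitals. H2-Aa is shown from chr17:34287852-34287912 on the minus strand. H2-Eb1 is from chr17:34305764-34305851, H2-DMb1 from chr17:34153085-34153149 and H2-DMb2 from chr17:34145114-34145178, all on the plus strand.
H2-Aa: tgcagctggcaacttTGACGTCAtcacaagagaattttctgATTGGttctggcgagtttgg
H2-Eb1: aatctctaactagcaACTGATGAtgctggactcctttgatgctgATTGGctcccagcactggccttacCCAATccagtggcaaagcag
H2-DMb1: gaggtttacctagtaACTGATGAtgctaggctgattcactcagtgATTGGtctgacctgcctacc
H2-DMb2: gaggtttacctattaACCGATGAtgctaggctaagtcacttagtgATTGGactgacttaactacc
The neighbouring H2-DMb1 and H2-DMb2 genes carry the X box core and the Y box core in the same order. Of the 7 class II genes with an entry in the promoter table, which runs from 250 bases before to 50 after each start, 4 held the X box core, 1 the X2 palindrome (H2-Aa) and 6 the Y box core on either strand. Among all 32851 promoters of that table the shares were 2.55%, 1.79% and 37.4%. The 4 promoters shown each held the X box core or the X2 palindrome. H2-DMa and Ifi30 were also called higher in both origins and had an entry, but are not shown. H2-DMa held the Y box core alone and Ifi30 held none of these motifs. The motifs were chosen after these sequences had been read, and a match is a description of letters, not a bound site.

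Markers of other antigen-presenting cells moved with the class II genes in the tumour. The counts stand beside 26.1% of all genes called higher and 18.0% lower in that comparison. Of 15 macrophage and monocyte markers, 13 were called higher in tumour CD71+ than in tumour CD71- neutrophils, and the list summed to 3974 and 4376 CPM in tumour CD71+ libraries against 884 and 885 CPM in tumour CD71- libraries. Of 10 microglia markers, 9 were called higher, with sums of 1180 and 1675 CPM in tumour CD71+ libraries against 219 and 261 CPM in tumour CD71- libraries. The dendritic cell markers (5 of 8 tested called higher), B cell markers (5 of 5) and T and NK cell markers (2 of 3) were also higher, but at lower sums, of which the dendritic cell sum was the largest at 69.9 and 95 CPM in tumour CD71+ libraries against 15.9 and 18.4 CPM in tumour CD71- libraries. The B cell markers summed to 29.4 and 19.2 CPM in tumour CD71+ libraries against 2.93 and 2.36 CPM in tumour CD71- libraries, and the T and NK cell markers to 7.12 and 25.8 CPM against 4.89 and 4.71 CPM. The mature neutrophil list went the other way, with 15 of 20 genes called lower and sums of 29189 and 28874 CPM in tumour CD71+ libraries against 60597 and 59926 CPM in tumour CD71- libraries. The part of these cell types in the class II difference was not tested.

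The same lists were read in culture, where 9.76% of all genes were called higher and 9.46% lower. Of the macrophage and monocyte markers, 9 of 15 were called higher in culture CD71+ neutrophils, with sums of 1337 and 1139 CPM in culture CD71+ libraries against 784 and 844 CPM in culture CD71- libraries. The dendritic cell markers summed to 26.1 and 25 CPM in culture CD71+ libraries against 8.88 and 8.34 CPM in culture CD71- libraries, with 2 of 8 called higher. The microglia markers (5 of 10 called higher) summed to 175 and 143 CPM in culture CD71+ libraries against 77.4 and 78.0 CPM in culture CD71- libraries, and the B cell markers (1 of 5 called higher) to 6.89 and 10.1 CPM against 2.66 and 7.71 CPM. The mature neutrophil list summed to 5516 and 4333 CPM in culture CD71+ libraries against 10700 and 9667 CPM in culture CD71- libraries, with 12 of 20 called lower. Flt3, which defines the dendritic cell lineage, had 0.122 and 0.276 CPM in culture CD71+ libraries and 0.178 and 0 CPM in culture CD71- libraries. It was at or near the floor there and overlapped between the culture fractions. The dendritic cell markers called higher in culture, chosen for naming after their values were seen, were Clec10a, a surface lectin, at 17.6 and 15.5 CPM in culture CD71+ libraries against 1.84 and 1.90 CPM in culture CD71- libraries, and Ccr7, a chemokine receptor, at 2.62 and 2.76 CPM against 0.118 and 0.453 CPM. The part of these cell types in the culture difference was not tested either. In the tumour, Flt3 had 5.48 and 6.87 CPM in CD71+ libraries against 2.23 and 1.39 CPM in CD71- libraries.

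Csf1r, the growth factor receptor that defines monocytes and macrophages, gave a measure within each library. Csf1r had 849 and 1032 CPM in tumour CD71+ libraries against 266 and 237 CPM in tumour CD71- libraries, and 791 and 703 CPM in culture CD71+ libraries against 526 and 565 CPM in culture CD71- libraries. Per kilobase of exon, Cd74 stood at 1.58 and 1.02 times Csf1r in tumour CD71+ libraries and at 1.30 and 1.36 times in tumour CD71- libraries, so this ratio overlapped between the tumour fractions. In culture CD71+ libraries it was 3.30 and 3.0, against 1.54 and 2.05 in culture CD71- libraries, and the fractions were apart. H2-Aa stood at 0.215 and 0.148 times Csf1r in tumour CD71+ libraries against 0.221 and 0.226 in tumour CD71- libraries. It stood at 0.0758 and 0.0724 in culture CD71+ libraries against 0.00616 and 0.0232 in culture CD71- libraries. Relative to Csf1r, then, the tumour CD71+ fraction was not above the tumour CD71- fraction for these 2 genes, whereas in culture the CD71+ fraction was above for both. Other class II genes stood higher against Csf1r in the tumour. The ratio of mean CPM, tumour CD71+ over tumour CD71-, was 3.74 for Csf1r, and it was larger for 5 of the 10 class II genes, at 4.96 for H2-DMa, 8.90 for Ifi30, 8.91 for H2-DMb1, 10.6 for Ciita and 25.3 for H2-DMb2. It was smaller for the other 5, from 2.15 for H2-Eb1 to 3.59 for Cd74. In culture the ratio was 1.37 for Csf1r and ran from 1.86 for Ifi30 to 10.3 for Ciita over the 10 class II genes. All these comparisons rest on Csf1r alone, and other markers of its list, named after their values were seen, changed otherwise. In the tumour, C1qa had 411 and 480 CPM in CD71+ libraries against 33.9 and 46.7 CPM in CD71- libraries. Cd68 had 214 and 188 CPM against 277 and 241 CPM there. In culture, Ccr2 had 100 and 93.3 CPM in CD71+ libraries against 9.18 and 7.98 CPM in CD71- libraries. Apoe had 29.1 and 20.5 CPM against 23.9 and 25.7 CPM there.

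Class I genes did not share a direction between the fractions. In the tumour, 7 of the 22 were called higher in CD71+ than in CD71- neutrophils, beside 26.1% of all genes, and 5 were called lower, beside 18.0% of all genes. Their median was 0.31, beside 0.13 over all genes. The class I genes together summed to 4997 and 5065 CPM in tumour CD71+ libraries and 5450 and 5040 CPM in tumour CD71- libraries, which overlapped. In culture, 4 of 22 were called higher and 2 lower, beside 9.76% and 9.46% of all genes, with a median of 0.07.

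By mean level per kilobase, the classical heavy chains H2-D1 and H2-K1 ranked next after B2m among the class I genes of every group. H2-D1 had 1160 and 1127 CPM in tumour CD71+ libraries against 1639 and 1573 CPM in tumour CD71- libraries (log2 -0.49, SE 0.16, adjusted p = 0.023), and 269 and 240 CPM in culture CD71+ libraries against 399 and 445 CPM in culture CD71- libraries (log2 -0.73, SE 0.16, adjusted p = 0.0061). H2-K1, the other classical chain, had 774 and 731 CPM in tumour CD71+ libraries against 1056 and 865 CPM in tumour CD71- libraries, and its value of -0.35 did not pass (SE 0.17, adjusted p = 0.10). In culture its fractions overlapped, at 196 and 166 CPM in CD71+ libraries and 167 and 172 CPM in CD71- libraries. B2m, the light chain shared by all class I molecules, had 1093 and 1285 CPM in tumour CD71+ libraries against 623 and 885 CPM in tumour CD71- libraries (log2 0.66, SE 0.23, adjusted p = 0.032), so in the tumour the light chain and the H2-D1 heavy chain moved in opposite directions with TMM scaling. Per kilobase, B2m was 1.78 and 2.18 times the sum of H2-K1 and H2-D1 in tumour CD71+ libraries against 0.728 and 1.14 times in tumour CD71- libraries, a ratio that does not depend on the scaling of libraries. In culture the same ratio was 4.65 and 3.31 in CD71+ libraries against 2.18 and 2.20 in CD71- libraries.

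The other genes called lower in the tumour CD71+ fraction were H2-Q4, a nonclassical chain (log2 -0.57, SE 0.22, adjusted p = 0.049), H2-T23, the Qa-1 molecule read by NK cell receptors (-0.55, SE 0.18, 0.024), Tapbp, the peptide loading bridge tapasin (-0.50, SE 0.19, 0.049), and Nlrc5, the transactivator of class I genes (-0.52, SE 0.17, 0.027). H2-Q4 was also called lower in culture, at 11.4 and 13 CPM in CD71+ libraries against 28.0 and 35.8 CPM in CD71- libraries (log2 -1.38, SE 0.23, adjusted p = 0.0012). With libraries scaled on the mature neutrophil list that culture value was -0.21 (adjusted p = 0.545), and the culture call of H2-D1 was lost with that list (0.43, 0.0747) and with total counts (-0.42, 0.0733). All 5 tumour calls of lower rest on the scaling as well. With total counts their values were 0.0 to 0.07, with libraries scaled on the mature neutrophil list they were 0.31 to 0.42, and with DESeq2 size factors they were -0.71 to -0.79 for H2-D1, H2-Q4, H2-T23, Tapbp and Nlrc5. Each was also lost when some library was left out. H2-D1 was lost without tumour CD71+ replicate 1 (adjusted p = 0.0841) or 2 (0.107), and Nlrc5 without tumour CD71- replicate 1 (0.102) or either tumour CD71+ replicate (0.154 and 0.0559). H2-T23 was lost without tumour CD71- replicate 1 (0.0822) or either tumour CD71+ replicate (0.0709 and 0.104). H2-Q4 was lost without tumour CD71- replicate 1 (0.319), either tumour CD71+ replicate (0.103 and 0.187) or either culture CD71+ replicate (0.0722 and 0.0708). Tapbp was lost without either tumour CD71- replicate (0.11 and 0.0546), tumour CD71+ replicate 2 (0.369) or either culture CD71+ replicate (0.0764 and 0.0748).

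The class I genes called higher in both origins were Pdia3, Erap1, Calr and Cd1d1, which were 4 of the 7 tumour calls and all 4 culture calls. Pdia3 encodes ERp57, a disulfide isomerase of the loading complex, and had 199 and 229 CPM in tumour CD71+ libraries against 76.0 and 78.7 CPM in tumour CD71- libraries (log2 1.47, SE 0.17, adjusted p = 2.8e-05). In culture it had 114 and 99.0 CPM in CD71+ libraries against 57.7 and 56.4 CPM in CD71- libraries (log2 0.90, SE 0.16, adjusted p = 0.0019). Erap1, which trims peptides in the endoplasmic reticulum, had 34.0 and 48.9 CPM in tumour CD71+ libraries against 13.1 and 15 CPM in tumour CD71- libraries (log2 1.56, SE 0.22, adjusted p = 0.00015). In culture it had 48.3 and 45.4 CPM in CD71+ libraries against 25.8 and 25.7 CPM in CD71- libraries (log2 0.86, SE 0.20, adjusted p = 0.009). Both genes act in the same compartment, and neither overlapped between the fractions of either origin. Calr, the chaperone calreticulin, rose by 0.59 in the tumour and 0.69 in culture (SE 0.16 for each, adjusted p = 0.0094 and 0.0084). Cd1d1, which pairs with B2m and shows lipids to NKT cells, had 2.79 and 4.61 CPM in tumour CD71+ libraries against 0.838 and 1.25 CPM in tumour CD71- libraries (log2 1.82, SE 0.55, adjusted p = 0.016). In culture it had 7.47 and 5.84 CPM in CD71+ libraries against 1.84 and 0.997 CPM in CD71- libraries (log2 2.16, SE 0.38, adjusted p = 0.0015).

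The remaining tumour calls of higher were B2m, H2-M3 and Psme1. H2-M3 presents peptides that begin with formyl-methionine, as bacterial and mitochondrial proteins do, and had 10.5 and 17.3 CPM in tumour CD71+ libraries against 6.42 and 4.43 CPM in tumour CD71- libraries (log2 1.36, SE 0.33, adjusted p = 0.0048). Psme1, a subunit of the PA28 ring that opens the proteasome, had 53.3 and 50.2 CPM in tumour CD71+ libraries against 26.2 and 25.4 CPM in tumour CD71- libraries (log2 1.0, SE 0.22, adjusted p = 0.0029). Its partner Psme2 (0.43, adjusted p = 0.098) and the catalytic immunoproteasome subunits Psmb8 (0.54, adjusted p = 0.093), Psmb9 (0.37, 0.23) and Psmb10 (0.86, 0.16) did not pass. The peptide transporter genes did not pass either, with -0.43 for Tap1 (adjusted p = 0.067) and -0.43 for Tap2 (0.28). Of the 7 calls of higher, those of Pdia3 and Erap1 held without each library in turn. The others were lost without tumour CD71- replicate 1 (B2m 0.465, Psme1 0.0549, Calr 0.0919, Cd1d1 0.161), tumour CD71- replicate 2 (H2-M3 0.0997, Psme1 0.0597, Calr 0.132, Cd1d1 0.0804), tumour CD71+ replicate 1 (B2m 0.0551) or tumour CD71+ replicate 2 (H2-M3 0.0531, B2m 0.189, Calr 0.0543, Cd1d1 0.088). In culture, Calr was lost without culture CD71+ replicate 1 (0.128), and Erap1 without culture CD71+ replicate 1 (0.0907) or 2 (0.0535). H2-D1 was lost there without culture CD71+ replicate 2 (0.0938).

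The balance between the classes can be read within each library, where the scaling between libraries plays no part. Summed per kilobase, the class II chains H2-Aa, H2-Ab1 and H2-Eb1 stood at 0.169 and 0.162 of the class I chains H2-K1 and H2-D1 in tumour CD71+ libraries, against 0.0484 and 0.0421 in tumour CD71- libraries. In culture they stood at 0.293 and 0.283 in CD71+ libraries against 0.0428 and 0.0641 in CD71- libraries. In both origins the CD71+ libraries were above the CD71- libraries, and the CD71- libraries of tumour and culture overlapped. Cd74 per kilobase was 1.93 and 1.63 times the summed class II chains in tumour CD71+ libraries against 1.24 and 1.46 times in tumour CD71- libraries, and 9.02 and 8.62 times in culture CD71+ libraries against 15.5 and 13.6 times in culture CD71- libraries. The invariant chain was thus in larger excess over the chains in every culture library than in any tumour library.

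**Figure D3:**
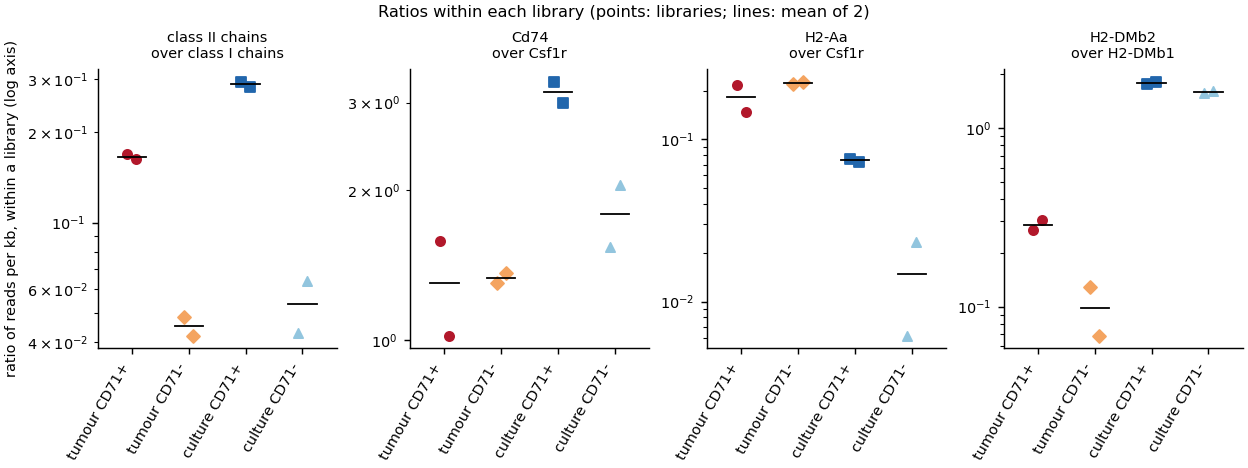
Ratios of reads per kilobase within each library, on log axes, with points for libraries and lines for the mean of 2. The class II to class I chain ratio is higher in the CD71+ libraries of both origins, the Cd74 to Csf1r ratio overlaps between the tumour fractions, and H2-DMb2 over H2-DMb1 is above 1 in all culture libraries and below 1 in all tumour libraries.

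The CD71 effect itself was compared between the origins by the difference, tumour minus culture, of the fold changes. Of all genes 15.3% were called, 10.5% with a larger and 4.75% with a smaller effect in the tumour. Among the class II genes 2 were called larger (H2-DMb2 and Ifi30) and 1 smaller (H2-Eb1), and among the class I genes 1 was called larger (Psme1) and 1 smaller (Tapbp). Ifi30 rose by 3.15 in the tumour and 0.90 in culture, a difference of 2.26 (SE 0.37, adjusted p = 0.0022). H2-Eb1 rose by 1.10 in the tumour and 3.21 in culture, a difference of -2.11 (SE 0.34, adjusted p = 0.0017). These calls of Ifi30 and H2-Eb1 held with each scaling and without each library in turn. The difference for H2-DMb2 was 2.55 (SE 0.82, adjusted p = 0.047), that for Psme1 1.04 (SE 0.31, 0.036) and that for Tapbp -0.88 (SE 0.27, 0.042). With DESeq2 size factors the calls of H2-DMb2 (0.0665) and Psme1 (0.0725) were lost, as they were with the mature neutrophil scaling (0.135 and 0.196), and that of Tapbp was lost with total counts (0.0967). The calls of H2-DMb2, Psme1 and Tapbp were each lost with the replicate number as a block (adjusted p = 0.0568, 0.0604 and 0.0548). H2-DMb2 was also lost without any library but culture CD71- replicate 1 and tumour CD71+ replicate 2 (adjusted p up to 0.327, without tumour CD71- replicate 2), and Psme1 without any but culture CD71- replicate 1 (up to 0.191, without tumour CD71- replicate 2). Tapbp was lost without any library but culture CD71- replicate 2 and tumour CD71+ replicate 1 (up to 0.147, without tumour CD71+ replicate 2).

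Between the origins, class I and class II parted. The origins differ in tissue and in growth inside or outside the animal at once, and these cannot be told apart. Among CD71+ neutrophils, 15 of 22 class I genes were called higher in the tumour than in culture, beside 31.4% of all genes, and 2 lower, beside 29.3% (60.7% in either direction). Among CD71- neutrophils, 13 were called higher, beside 30.2% of all genes, and 2 lower, beside 36.5% (66.7% in either direction). These counts hold for TMM scaling. With libraries scaled on the mature neutrophil list, which sets those genes equal as a group but not each of them, 4 were called higher and 14 lower among CD71+ neutrophils, and 5 higher and 12 lower among CD71- neutrophils. Of the 13 with TMM, all but Tapbp were also called higher among CD71+ neutrophils. Marker lists differed as well. Of the 15 macrophage and monocyte markers 11 were called higher in the tumour among CD71+ and 10 among CD71- neutrophils, and of the 20 mature neutrophil genes 17 and 15, and their part in the class I difference was not tested. The mature neutrophil genes did not move together. Among CD71+ libraries, Hdc averaged 4186 CPM in the tumour and 12.5 CPM in culture, whereas Mmp8 averaged 235 and 1314 CPM. The class I medians were 1.07 for CD71+ and 0.88 for CD71- neutrophils, where the medians over all genes were -0.08 and -0.29.

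Nlrc5 (chromosome 8, 94434356 to 94527272 on mm10) and the H2-Q genes differed most among the class I genes. Nlrc5 had 200 and 226 CPM in tumour CD71+ libraries against 8.96 and 9.71 CPM in culture CD71+ libraries (log2 4.51, SE 0.20, adjusted p = 4.5e-10). In the CD71- fraction it had 346 and 264 CPM in tumour libraries against 7.28 and 7.89 CPM in culture libraries (log2 5.33, SE 0.22, adjusted p = 1.4e-10). No tumour library came near a culture library for this transactivator. H2-Q7, which encodes a Qa-2 chain, had 105 and 96.8 CPM in tumour CD71+ libraries against 3.99 and 3.32 CPM in culture CD71+ libraries (log2 4.78, SE 0.23, adjusted p = 7.1e-10). In CD71- libraries H2-Q7 had 97.0 and 76.1 CPM in the tumour against 3.38 and 4.53 CPM in culture (log2 4.47, SE 0.24, adjusted p = 1.5e-09). H2-Q6 differed by 4.61 among CD71+ and 3.79 among CD71- neutrophils (SE 0.23 for each), and H2-Q4 by 3.94 (SE 0.25) and 3.13 (SE 0.24). These chains share sequence, with 32% of the 50-base stretches of H2-Q6, 26.4% of H2-Q7 and 21.8% of H2-Q4 also found in another gene, so reads could be split between them or lost, and each value alone is uncertain. The H2-Q chains summed to 0.211 and 0.216 of H2-K1 and H2-D1 per kilobase in tumour CD71+ libraries against 0.0444 and 0.0528 in culture CD71+ libraries. In CD71- libraries the ratio was 0.212 and 0.149 in the tumour against 0.0697 and 0.0790 in culture. The H2-Q share was thus higher in every tumour library. The other nonclassical chains H2-T22, H2-T23 and H2-M3 were not part of this ratio.

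The classical chains were also higher in the tumour, with values of 0.10 and 0.21 left among CD71+ neutrophils for H2-K1 and H2-D1 when libraries were scaled on the mature neutrophil list. With TMM, H2-K1 differed by 2.06 among CD71+ (SE 0.17, adjusted p = 1.9e-07) and 2.50 among CD71- neutrophils (SE 0.18, 2.6e-08), and H2-D1 by 2.17 (6.7e-08) and 1.93 (1.7e-07). H2-T22, a ligand of some gamma-delta T cells, differed by 1.82 and 2.20, H2-T23 by 1.04 and 1.59, and Tap1 by 1.43 and 1.63 in the CD71+ and CD71- comparisons. B2m differed less than H2-K1 and H2-D1, by 1.10 (adjusted p = 0.00099) and 0.86 (0.0049). With libraries scaled on the mature neutrophil list these rises did not hold. B2m then stood at -0.83 (adjusted p = 0.00278) among CD71+ and -0.87 (0.00239) among CD71- neutrophils. In the same order, H2-T23 stood at -0.92 (0.00254) and -0.11 (0.708), Tap1 at -0.53 and -0.05, and H2-T22 at -0.14 and 0.50. With TMM the lower calls included Tap2 in both fractions, at -0.97 among CD71+ and -0.80 among CD71- neutrophils (adjusted p = 0.016 and 0.037). The others were Cd1d1 among CD71+ (-0.85, 0.045) and Erap1 among CD71- neutrophils (-0.87, 0.0034). The Tap2 call among CD71+ neutrophils was lost without tumour CD71+ replicate 2 (0.0685) or culture CD71+ replicate 2 (0.0694). Among CD71- neutrophils the Tap2 call was lost without tumour CD71- replicate 1 (0.112) or 2 (0.342) or culture CD71- replicate 2 (0.421), and Erap1 without tumour CD71- replicate 1 (0.0982). Cd1d1 was lost without tumour CD71+ replicate 1 (0.265), either tumour CD71- replicate (0.0658 and 0.0657), or culture CD71+ replicate 1 (0.198) or 2 (0.0513). The catalytic immunoproteasome subunits had values of 0.35, -0.04 and 0.36 for Psmb8, Psmb9 and Psmb10 among CD71+ neutrophils and 0.23, -0.48 and -0.98 among CD71- neutrophils, which did not pass. Per kilobase, Psmb8 was 1.62 and 1.87 times its constitutive counterpart Psmb5 in tumour CD71+ libraries against 0.931 and 0.856 times in culture CD71+ libraries, and 2.51 and 2.28 times in tumour CD71- libraries against 1.22 and 0.978 times in culture CD71- libraries. Every tumour library was above every culture library in that ratio. Psmb9 over Psmb6 did not show this order, at 0.280 and 0.278 in tumour CD71+ libraries against 0.348 and 0.493 in culture CD71+ libraries, and 0.485 and 0.465 in tumour CD71- libraries, which lay between the 0.554 and 0.417 of culture CD71- libraries. Psmb10 over Psmb7 overlapped among CD71+ libraries and stood lower in the tumour among CD71- libraries, at 0.805 and 0.363 in tumour CD71+ libraries against 0.720 and 1.02 in culture CD71+ libraries, and 0.359 and 0.303 in tumour CD71- libraries against 0.760 and 2.27 in culture CD71- libraries.

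Class I promoters are known for an NF-kB site and an interferon response sequence, and H2-K1 and H2-Q7 are shown as the classical chain and the H2-Q chain of the comparison above. Capitals mark the NF-kB site GGGATTCCC, the interferon response sequence TTTCACTTC, the X box core ACNGATGA and the Y box core ATTGG, each on either strand, from RefSeq on GRCm38.p6. H2-K1 is from chr17:34000320-34000472 on the minus strand and H2-Q7 from chr17:35439008-35439158 on the plus strand.
H2-K1: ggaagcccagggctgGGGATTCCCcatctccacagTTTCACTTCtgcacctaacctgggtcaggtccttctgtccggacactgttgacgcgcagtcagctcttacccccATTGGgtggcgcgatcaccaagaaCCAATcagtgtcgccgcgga
H2-Q7: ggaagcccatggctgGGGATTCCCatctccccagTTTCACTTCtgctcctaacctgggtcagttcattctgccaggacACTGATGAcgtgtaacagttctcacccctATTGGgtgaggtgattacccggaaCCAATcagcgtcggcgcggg
Of the 19 class I genes with a promoter entry, 6 held the interferon response sequence (H2-K1, H2-D1, H2-Q4, H2-Q6, H2-Q7 and H2-M3), beside 0.505% of all promoters, and it was found in none of the 7 class II entries. The NF-kB site was held by H2-K1, H2-D1, H2-Q6 and H2-Q7, beside 0.353% of all promoters. The X box core was held by 6 of the 19, beside 2.55%, and the Y box core by 14, beside 37.4%. The genes with the interferon response sequence or the NF-kB site are all related heavy chain genes, so their matches are not separate hits. A match describes letters, not a bound site. The 13 class I genes on chromosome 17 lie between 33915899 and 37274484 on mm10, and the class II genes there between 34092340 and 34316674, inside that span.

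**Figure D4:**
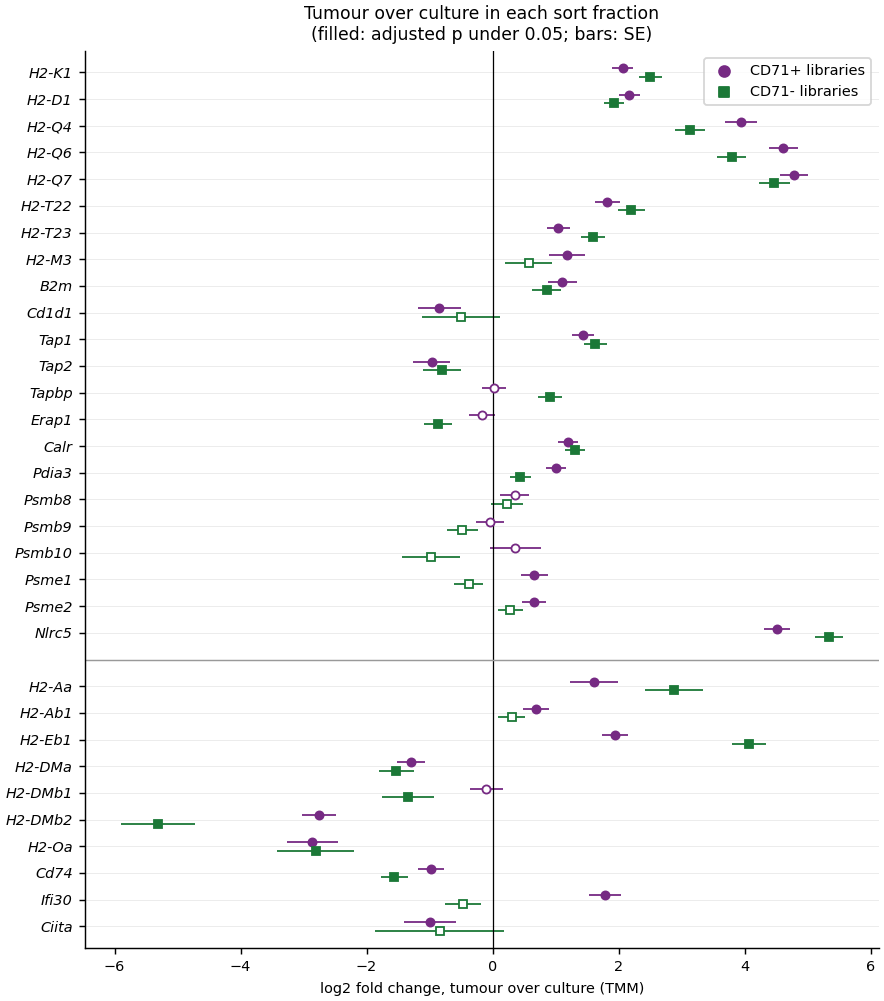
Log2 fold change of tumour over culture for each gene among CD71+ (circles) and CD71- (squares) libraries, with bars of 1 SE and filled symbols for an adjusted p under 0.05. Nlrc5 and the H2-Q genes lie between 3.13 and 5.33, the class II chains lie above 0 with this TMM scaling (those of CD71+ libraries lie between -1.26 and -0.01 with libraries scaled on the mature neutrophil list), and H2-DMa, H2-DMb2, H2-Oa and Cd74 lie below 0.

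Class II genes split by role between the origins. Of the 10, 4 were called higher in tumour CD71+ than in culture CD71+ neutrophils and 5 lower, and 2 were called higher and 5 lower among CD71- neutrophils, beside the shares of all genes given above. With TMM scaling the chains were on the higher side, while with libraries scaled on the mature neutrophil list the values of all 3 were below 0 among CD71+ neutrophils (-0.01 for H2-Eb1, -0.36 for H2-Aa and -1.26 for H2-Ab1). H2-Eb1 differed by 1.94 among CD71+ (SE 0.21, adjusted p = 2.5e-06) and by 4.06 among CD71- neutrophils (adjusted p = 1.4e-08), H2-Aa by 1.60 (0.0055) and 2.87 (0.00043), and H2-Ab1 by 0.69 among CD71+ neutrophils (0.01, lost without tumour CD71+ replicate 1 at 0.119 and without culture CD71+ replicate 2 at 0.13), while its 0.30 among CD71- neutrophils did not pass (0.25). Loading factors were on the lower side. Cd74 differed by -0.98 among CD71+ (adjusted p = 0.00082) and -1.56 among CD71- neutrophils (1.5e-05), H2-DMa by -1.30 (0.00015) and -1.53 (0.00026), and H2-Oa by -2.86 (2.7e-05) and -2.81 (0.0011). H2-DMb1 differed by -0.10 among CD71+ neutrophils, where the origins overlapped, and by -1.34 among CD71- neutrophils (0.011), a call lost without tumour CD71- replicate 1 (0.103) or 2 (0.116) or culture CD71- replicate 2 (0.0698). H2-DMb2 differed by -2.75 among CD71+ neutrophils (adjusted p = 5.2e-07). Among CD71- neutrophils it had 3 reads over the tumour libraries against 231 over the culture libraries, a ratio of scaled counts of 0.0252 with an exact 95% interval of 0.00516 to 0.0746 (edgeR log2 -5.31, adjusted p = 1.4e-06). Ifi30 was the loading factor that went against the others among CD71+ neutrophils with TMM, at 1.78 (adjusted p = 3.6e-05), while with libraries scaled on the mature neutrophil list it stood at -0.16 (0.567). Ciita differed by -1.0 there (adjusted p = 0.048), a call lost with DESeq2 size factors (0.0659) and without tumour CD71+ replicate 2 (0.278), either tumour CD71- replicate (0.085 and 0.0843) or culture CD71+ replicate 2 (0.21).

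The H2-DM beta chains switched order between the origins. Per kilobase, H2-DMb2 stood at 0.269 and 0.304 times H2-DMb1 in tumour CD71+ libraries against 1.76 and 1.81 times in culture CD71+ libraries. In CD71- libraries it stood at 0.128 and 0.0687 times in the tumour against 1.58 and 1.61 times in culture. The 4 tumour libraries were all below 1 and the 4 culture libraries all above 1, so the order followed the origin and not the CD71 fraction. The pair share 22.7% of the 50-base stretches of H2-DMb1, so some reads could not be assigned to either gene. Within the chains, H2-Aa stood at 0.722 and 0.762 times H2-Ab1 in tumour CD71+ libraries against 0.389 and 0.403 times in culture CD71+ libraries, and at 0.863 and 0.880 times in tumour CD71- libraries against 0.0758 and 0.208 times in culture CD71- libraries. H2-Eb1 stood at 1.04 and 1.44 times H2-Ab1 in tumour CD71+ libraries against 0.486 and 0.537 times in culture CD71+ libraries, and at 2.22 and 1.72 times in tumour CD71- libraries against 0.148 and 0.150 times in culture CD71- libraries. For both ratios, every tumour library was above every culture library.

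Compared per kilobase of exon, B2m was the most abundant of the 32 transcripts in every group, at 1383 ± 158 CPM per kb in tumour CD71+, 877 ± 215 in tumour CD71-, 644 ± 212 in culture CD71+ and 485 ± 34.4 in culture CD71- libraries (SD, n = 2 each). In the tumour H2-D1 and H2-K1 followed, at 443 ± 9.13 and 256 ± 10.5 CPM per kb in CD71+ libraries and 623 ± 18.2 and 327 ± 46.1 in CD71- libraries. In culture Cd74 was second, at 409 ± 61.1 CPM per kb in CD71+ and 171 ± 42.8 in CD71- libraries, where H2-D1 stood at 98.6 ± 7.87 and 164 ± 12.7 and was within the spread of Cd74 in the CD71- fraction. Cd74 was at 207 ± 36.2 CPM per kb in tumour CD71+ and 57.7 ± 2.83 in tumour CD71- libraries. Ciita was among the lowest, between 0.0583 ± 0.0203 CPM per kb in tumour CD71- and 1.24 ± 0.326 in culture CD71+ libraries.

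Further genes of the pathway, outside the 32, were taken from a list. The counts stand beside 26.1% of all genes called higher and 18.0% lower in the tumour, and 9.76% and 9.46% in culture. Of 19 further genes tested on the class II side (proteases, RFX and NF-Y subunits, regulators), 8 were called higher and 4 lower in tumour CD71+ neutrophils, and 10 were called higher in culture CD71+ neutrophils. The further class II genes had a median of 0.45 in the tumour and 0.61 in culture. Of 25 further genes on the class I side, 4 were called higher and 8 lower in the tumour, and 4 higher and 5 lower in culture, with medians of -0.32 and 0.11. Of 8 costimulation genes tested, 3 were called higher and 5 lower in the tumour, and 2 higher in culture. The class II side led the tumour rises, with Irf8, a transcription factor of dendritic cells and monocytes, at 93.5 and 84.0 CPM in tumour CD71+ libraries against 9.91 and 8.59 CPM in tumour CD71- libraries (log2 3.26, SE 0.24, adjusted p = 7.7e-07). Cd83, which steadies class II at the surface, rose by 2.94 (SE 0.23, adjusted p = 1.2e-06) and Ctss, the protease that cuts Cd74, by 2.86 (SE 0.24, 2.5e-06). The tumour falls were led by H2-Q10, a secreted class I chain, at 144 and 104 CPM in tumour CD71+ libraries against 359 and 299 CPM in tumour CD71- libraries (log2 -1.40, SE 0.20, adjusted p = 0.00013). The T cell ligands Cd80 (-1.18, SE 0.20, adjusted p = 0.00046) and Pdcd1lg2 (-0.97, SE 0.25, 0.0063) also fell. In culture the largest rises were Mr1, which shows vitamin metabolites to MAIT cells (2.14, SE 0.31, adjusted p = 0.00041), Lgmn, a lysosomal protease (1.86, SE 0.23, 0.00013), and Cd86, a T cell costimulator (1.70, SE 0.23, 0.00024). The largest culture falls were H2-Q10 (-2.04, SE 0.23, adjusted p = 7.6e-05), the interferon factor Irf1 (-1.11, SE 0.17, 0.00059) and H2-T24 (-0.63, SE 0.20, 0.039).

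The scaling of the libraries moved the class I counts and left the class II rises in place. The median of all genes between the tumour fractions was 0.13 with TMM, -0.07 with DESeq2 size factors, 0.69 with total counts and 1.04 with libraries scaled on the mature neutrophil list, and in culture it was 0.03, 0.00, 0.33 and 1.21. The class II median stayed above it under each, at 2.08, 1.86, 2.64 and 2.99 in the tumour and 1.98, 1.94, 2.30 and 3.16 in culture. The class I median kept close to it, at 0.31, 0.09, 0.87 and 1.20 in the tumour and 0.07, 0.03, 0.39 and 1.24 in culture. The share of all calls that were higher was 59.2% in the tumour with TMM, and 46.3%, 92.7% and 99.4% with the other scalings in the same order. In culture it was 50.8% with TMM and 44.5%, 81.9% and 98.7% with the others. All 9 class II calls in the tumour and all 10 in culture held under each of the 3 other scalings. Of the 7 class I calls of higher in the tumour 5 held, with B2m (adjusted p = 0.141) and Calr (0.0683) lost with DESeq2 size factors, and all 4 in culture held. Between the origins, the calls that held under each scaling among CD71- neutrophils were H2-K1, H2-Q4, H2-Q6, H2-Q7, Nlrc5 and H2-Eb1 higher and H2-DMa, H2-DMb1, H2-DMb2, H2-Oa, Cd74 and Erap1 lower. Among CD71+ neutrophils they were H2-Q4, H2-Q6, H2-Q7 and Nlrc5 higher and H2-DMa, H2-DMb2, H2-Oa, Cd74 and Tap2 lower.

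**Figure D5:**
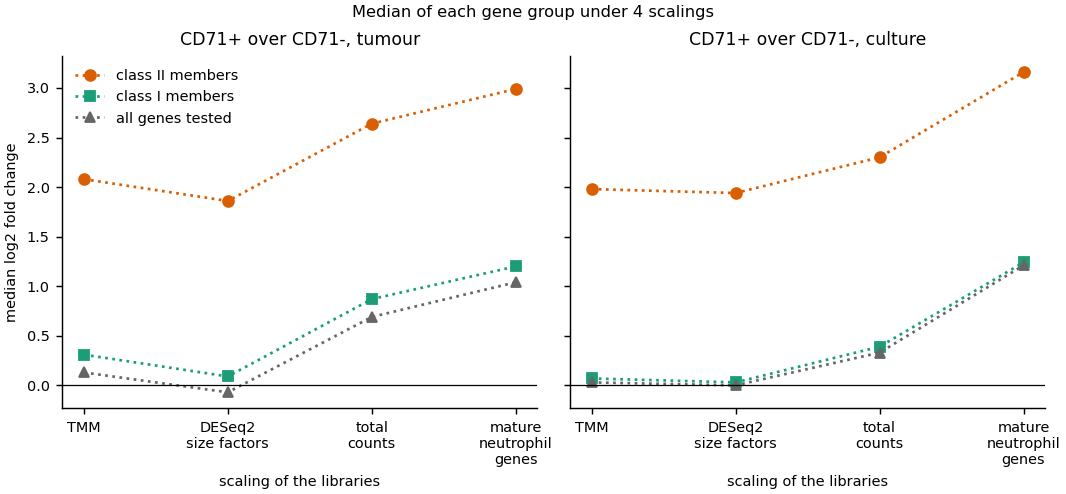
Median log2 fold change of CD71+ over CD71- for the class II genes, the class I genes and all genes tested, under 4 scalings of the libraries, in the tumour (left) and in culture (right). Dotted lines join values of the same gene group. The class II median lies above the median of all genes under every scaling, and the class I median moves with it.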

How the data were processed

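Per the labels' protocols, the Quick-RNA Microprep kit gave total RNA, and libraries came from Illumina's stranded total RNA kit after ribosomal RNA was removed. Per the submitters' processing notes, FastQC, cutadapt, STAR, featureCounts, DESeq2 and the build mm10 were used, and versions, step order and the strand setting of the counting are not given in the sources used here. In the file, the deposited values are raw read counts per gene, not normalized, in 8 columns. All 55450 gene IDs were matched to GENCODE release M21 for coordinates and exon lengths.

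The fit used edgeR 4.0.16 under R 4.3.3 (filterByExpr on 4 groups, 15975 genes kept; TMM factors; robust quasi-likelihood fit of 4 group means to all 8 libraries; biological coefficient of variation in common 0.19; 4 residual degrees of freedom), with Benjamini-Hochberg adjustment over all genes tested and a threshold of 0.05. The fit was also run on simulated counts, in which a set of genes was changed by known folds in the tumour CD71+ group alone. All other genes had the same mean in every group, so that run does not bear on the choice of scaling. Its outcome is not reported here. The 5 comparisons were CD71+ against CD71- in each origin, the difference between these, and tumour against culture in each fraction. The 32 genes, the other lists and the tests were chosen with earlier results of these data known. All 32 genes are named. Of further pathway genes, the 3 largest rises and falls per CD71 comparison are named, among called genes averaging at least 5 CPM. Of marker lists the text names Csf1r, Flt3 and Csf3r. Clec10a, Ccr7, C1qa, Cd68, Ccr2, Apoe, Siglech, Hdc and Mmp8 were named after their values had been seen. A further marker gene is not reported here. Tfrc was added as the gene of the sort marker. Ratios within a library use reads per kilobase of exon and carry no test.

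No replicate pair held identical values, and a chi-square test of each pair's counts gave values per degree of freedom of 12.6 to 69.2, so every pair differed by more than counting noise. A read on a near-identical copy or an overlapping gene could be split or lost, which touches H2-T22 (34.5% of its 50-base stretches shared), H2-Q6, Psme2 (28.3%), H2-Q7, H2-DMb1, H2-DMb2, H2-Q4 and Cd1d1 (19.1%). Exons of H2-T22, Tapbp, H2-Oa, H2-Q4, Psmb8, Tap2, Erap1 and H2-DMa overlap a gene on the opposite strand by 10.4% to 29.4% of their length. Alternatives were other scalings, DESeq2 1.42.0, other filters, a replicate block, fits of 4 libraries and leaving out each library.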

Additional observations from a re-analysis of the deposited data

Results flagged for a closer look

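The CD71 effect, CD71+ over CD71-, differed between tumour and culture in a quasi-likelihood test (edgeR) of the difference for 5 of the 32 genes, with Benjamini-Hochberg adjustment over all genes tested and 2 libraries a group. Of all genes 15.3% were called in that comparison, so the count is near the background. Ifi30, the lysosomal thiol reductase, had an effect larger in the tumour by 2.26 on the log2 scale (adjusted p = 0.0022), with 115 and 135 CPM in tumour CD71+ libraries against 9.91 and 18.2 CPM in tumour CD71- libraries. H2-Eb1, the E beta chain, had a difference of -2.11 (adjusted p = 0.0017), with the larger effect in culture. H2-DMb2 had a difference of 2.55 (adjusted p = 0.047), on 3 reads over the tumour CD71- libraries. Psme1, of the PA28 ring, had a difference of 1.04 (adjusted p = 0.036), and Tapbp, tapasin, of -0.88 (adjusted p = 0.042). The calls of H2-DMb2 and Psme1 were lost with DESeq2 size factors (0.0665 and 0.0725) and with libraries scaled on the mature neutrophil list (0.135 and 0.196), that of Tapbp with total counts (0.0967), and all 3 with the replicate block (0.0568, 0.0604 and 0.0548) and without most single libraries. Macrophage and monocyte markers moved beside these differences. Of 15, 13 were called higher in tumour CD71+ neutrophils, beside 26.1% of all genes. In culture CD71+ neutrophils 9 of 15 were called higher, beside 9.76% of all genes. The part of these markers was not tested.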

How the results depend on the processing

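With 2 libraries a group, the spread rests on 4 residual degrees of freedom, and genes such as Ciita and H2-DMb2 with a few reads in tumour CD71- libraries have wide errors. Cell composition and RNA content per cell cannot be separated here, and the choice of scaling sets the sign of small class I differences between the fractions. Between the origins it also sets the sign of larger differences and of some class II genes. Among CD71+ neutrophils, tumour over culture, Calr stood at 1.19 with TMM and -0.76 with the mature neutrophil list. H2-Aa stood at 1.60 and -0.36 in the same order. The rises of class II genes between CD71+ and CD71- neutrophils kept their direction under every alternative run. Without division by exon length, the mean log2 ratio of class II to class I reads within a library was -2.64 in tumour CD71+ and -1.83 in culture CD71+ libraries. Where values below changed, the cause was not tested unless the alternative itself uses fewer libraries or genes.

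With DESeq2 size factors, the difference of the CD71 effects called 0 class I genes larger and 2 smaller, 1 class II gene larger and 1241 of all genes smaller, and 1 class I gene was called lower in the tumour in each of the CD71- and CD71+ comparisons. With DESeq2's own test these counts were 0, 2, 1, 1284, 1 and 1, and 1000 genes were called higher in culture CD71+ than in culture CD71- neutrophils. With total counts, 13 class I genes were called higher and 0 lower between the tumour fractions (6714 and 529 of all genes), 9 higher and 1 lower between the culture fractions (3265 and 721), and the difference called 5 class I genes larger and 0 smaller, 4 class II genes larger, and 2643 larger and 396 smaller of all. Among CD71- neutrophils 9 class I genes were then lower in the tumour (2973 of all genes higher and 8862 lower), and among CD71+ neutrophils 9 were higher and 5 lower (8298 of all genes lower). With libraries scaled on the mature neutrophil list, 15 class I genes were called higher and 0 lower between the tumour fractions (8375 and 48 of all), 17 and 0 between the culture fractions (11660 and 158), and the difference called 0 class I genes, 1 class II gene and 615 of all genes larger. Between the origins that scaling called 5 class I genes higher and 12 lower, 1 class II gene higher and 8 lower, and 1867 and 10683 of all genes among CD71- neutrophils, and 4 and 14 class I genes, 0 class II genes higher, and 1795 and 12039 of all among CD71+ neutrophils. Relative to TMM, the median of all genes between the tumour fractions shifted by -0.20 with DESeq2 size factors, 0.56 with total counts and 0.91 with the neutrophil list.

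With no filter, 1 class I gene was called lower between the tumour fractions, and the difference called 0 class I genes and 1 class II gene larger. With the stricter filter of 5 CPM in 2 libraries, 3 class I genes were lower between the tumour fractions, 2 were smaller in the difference, and 1 was lower in the tumour in each fraction. In fits of 4 libraries, 1 class I gene was lower in the tumour among CD71- neutrophils.

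Over all genes tested, deviations from the group means of same-numbered libraries had correlations between groups from -0.138 to 0.0716. The highest was that of the tumour fractions. These values cannot tell whether libraries of the same number share an animal or a culture. With the replicate block, 3 class I genes were called lower between the tumour fractions, the difference called 0 class I genes larger, 0 smaller and 1 class II gene larger, and 1 class I gene was lower in the tumour in each fraction. The block called 3953 genes higher and 2623 lower between the tumour fractions, and 1277 and 1250 between the culture fractions. Among CD71- neutrophils, where the correlation was -0.126, a crossed pairing chosen after seeing the data called 4855 genes higher and 5172 lower.

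Values that changed sign with total counts were, between the tumour fractions, H2-D1 0.07, H2-Q4 0.0, H2-T23 0.01, Tapbp 0.05 and Nlrc5 0.05. Tumour over culture among CD71- neutrophils they were B2m -0.06, Tapbp -0.02, Psmb8 -0.69, Psme2 -0.64, Pdia3 -0.49 and H2-Ab1 -0.62, and among CD71+ neutrophils Tapbp -0.66, Psme1 -0.02 and Psme2 -0.02. With the neutrophil list they were, between the tumour fractions, H2-K1 0.55, H2-D1 0.42, H2-Q4 0.31, H2-T22 0.65, H2-T23 0.35, Tapbp 0.39 and Nlrc5 0.38, and between the culture fractions H2-D1 0.43, H2-Q7 1.09, Tap1 0.94, Psmb9 1.09 and Psme1 1.10. Tumour over culture among CD71- neutrophils that scaling gave H2-T23 -0.11, H2-M3 -1.10, B2m -0.87, Tap1 -0.05, Tapbp -0.79, Psmb8 -1.50, Psme2 -1.43, Calr -0.40, Pdia3 -1.26 and H2-Ab1 -1.41. Among CD71+ neutrophils it gave H2-T22 -0.14, H2-T23 -0.92, H2-M3 -0.76, B2m -0.83, Tap1 -0.53, Tapbp -1.94, Psmb8 -1.60, Psmb10 -1.62, Psme1 -1.29, Psme2 -1.30, Calr -0.76, Pdia3 -0.95, H2-Aa -0.36, H2-Ab1 -1.26, H2-Eb1 -0.01 and Ifi30 -0.16.

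Leaving out each library in turn leaves a lone library assumed to vary like the other groups. Between the tumour fractions it gave 3 to 8 class I genes higher and 0 to 6 lower, 7 to 9 class II genes higher and 0 to 0 lower, and 2079 to 4398 of all genes higher and 1974 to 3313 lower. Between the culture fractions it gave 2 to 5 and 1 to 4 class I genes, 8 to 10 class II genes higher and 0 to 0 lower, and 582 to 1668 and 430 to 1575 of all. For the difference it gave 0 to 2 and 0 to 2 class I genes, 1 to 4 and 1 to 2 class II genes, and 423 to 1999 and 227 to 1436 of all. Among CD71- neutrophils it gave 12 to 13 and 0 to 5 class I genes, 2 to 3 and 4 to 5 class II genes, and 4485 to 5088 and 4034 to 6123 of all. Among CD71+ neutrophils it gave 12 to 15 and 0 to 2 class I genes, 3 to 4 and 4 to 5 class II genes, and 4620 to 5733 and 3765 to 5435 of all.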

Other observations

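Between the origins, further genes around antigen presentation also differed. Of 8 costimulation genes tested (such as Cd80 and Cd86, ligands of T cell CD28), 7 were called higher and 1 lower in tumour CD71+ than in culture CD71+ neutrophils, with a median log2 fold change of 2.03, and 5 were called higher in tumour CD71- than in culture CD71- neutrophils, with a median of 2.73. Cd80 had 600 and 574 CPM in tumour CD71+ libraries against 53.0 and 53.5 CPM in culture CD71+ libraries, and 1476 and 1182 CPM in tumour CD71- libraries against 41.0 and 26.8 CPM in culture CD71- libraries. Cd86 had 135 and 140 CPM in tumour CD71+ libraries against 10.2 and 10.9 CPM in culture CD71+ libraries, and 34.8 and 28.8 CPM in tumour CD71- libraries against 3.67 and 2.72 CPM in culture CD71- libraries. Within the tumour these ligands went opposite ways between the fractions, with Cd80 lower and Cd86 higher in the CD71+ libraries. H2-Q10, the secreted class I chain, had 144 and 104 CPM in tumour CD71+ libraries against 3.32 and 2.90 CPM in culture CD71+ libraries, and 359 and 299 CPM in tumour CD71- libraries against 14.3 and 11.2 CPM in culture CD71- libraries, and shares sequence with H2-K1 and H2-Q7. Of 25 further class I genes, 14 were called higher and 3 lower among CD71+ and 15 higher and 3 lower among CD71- neutrophils. Of 19 further class II genes, 10 were called higher and 3 lower among CD71+ and 13 higher and 4 lower among CD71- neutrophils. The shares of all genes called higher were 31.4% and 30.2%.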
